A study of Mus musculus with 8 samples.

Results

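Cell cycle and proliferation genes were followed in the descendants of hypertrophic chondrocytes, which are the enlarged cells where growth plate cartilage meets bone, in mice with altered β-catenin. The set held 50 genes given by name, and all 50 were found among the 48490 genes of the expression table. By function they were divided into 10 G1 cyclins, kinases and members of the E2F-Rb switch, 3 inhibitors of cyclin-dependent kinases (Cdk), 11 genes of S phase and replication, 14 G2/M cyclins, kinases and checkpoint genes, and 12 genes of mitotic chromosomes, the spindle and cytokinesis. All mice carried Col10a1Cre and Rosa26-Tdtomato, so that Cre, driven by the type X collagen promoter of hypertrophic chondrocytes, switched on the red reporter tdTomato in these cells and their progeny. LoF mutants were also Ctnnb1 Δ/Δ and had lost β-catenin in the Cre-expressing lineage (n = 4 libraries). GoF mutants were Ctnnb1-exon3 Δ/+, which removes on 1 allele the exon that marks β-catenin for destruction (n = 2), and wild-type controls (WT) carried the Cre and reporter alone (n = 2). Each library was made by Smart-seq2 from a pool of 70 tdTomato-positive cells, hand-picked from the proximal tibia at postnatal day 5. The labels do not say whether the libraries of a group came from separate animals, so the p-values cover only library-to-library spread, part of which may be technical.

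Cells enter the cycle when D-type cyclins with Cdk4 or Cdk6 release E2F transcription factors from Rb, and E2F then switches on genes for DNA replication. Cyclins A and B with Cdk1 later drive the cell into mitosis, and inhibitors such as the product of Cdkn1a hold the kinases in check. In the growth plate, chondrocytes divide in columns and leave the cycle as they enlarge, and β-catenin, through which canonical Wnt signals reach the nucleus, is a known regulator of Ccnd1 and Myc in several tissues.

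Promoter sequence was examined because several replication and mitotic genes were lower together in GoF. RefSeq windows (build GRCm38.p6, which shares its coordinates with mm10) of the 250 bases upstream of the start were at hand for 41 of the 50 genes. Searched on both strands, the CCAAT box (CCAAT) was in 31 of the 41 windows (75.6%), against 34.5% of the windows of 27025 genes. The cell cycle homology region, CHR (TTTGAA or TTCGAA), was in 10 of 41 (24.4%, against 17.5%), and the E2F core (TTGGCGC or TTCCCGC) in 9 of 41 (22.0%, against 5.74%). By role, the CCAAT box was in 9 of 10 S phase, 11 of 12 G2/M and 9 of 10 mitotic windows, but in 1 of 6 windows of the G1 genes. Matches are descriptions of the letters and not measured binding, and a link between matches and levels was not tested. Genes without a call also held many. Ube2c had 6 CCAAT boxes and 1 CHR match, and Cdk1 had 3 CCAAT boxes, 2 CHR matches and 1 E2F core. The 3 windows with most matches among the genes called lower in GoF against LoF are shown, with CCAAT, CHR and E2F core matches in capitals, which do not overlap each other. All 3 genes lie on the minus strand, and the windows are chr11:99024190-99024439 for Top2a, chr9:70421555-70421804 for Ccnb2 and chr1:128359706-128359955 for Mcm6. Top2a holds 6 CCAAT boxes and 4 CHR matches, Ccnb2 3 CCAAT boxes and 1 CHR match, and Mcm6 2 CCAAT boxes and 2 E2F cores.
Top2a: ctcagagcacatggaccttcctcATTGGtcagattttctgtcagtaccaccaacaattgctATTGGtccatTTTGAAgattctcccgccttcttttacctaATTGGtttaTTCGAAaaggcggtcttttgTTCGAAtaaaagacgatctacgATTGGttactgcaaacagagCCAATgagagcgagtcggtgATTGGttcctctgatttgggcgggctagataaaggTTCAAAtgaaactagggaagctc
Ccnb2: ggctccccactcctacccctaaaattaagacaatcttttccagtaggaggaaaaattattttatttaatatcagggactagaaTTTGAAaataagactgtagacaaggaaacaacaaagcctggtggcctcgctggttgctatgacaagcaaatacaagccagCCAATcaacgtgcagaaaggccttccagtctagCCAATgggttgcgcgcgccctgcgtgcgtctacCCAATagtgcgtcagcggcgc
Mcm6: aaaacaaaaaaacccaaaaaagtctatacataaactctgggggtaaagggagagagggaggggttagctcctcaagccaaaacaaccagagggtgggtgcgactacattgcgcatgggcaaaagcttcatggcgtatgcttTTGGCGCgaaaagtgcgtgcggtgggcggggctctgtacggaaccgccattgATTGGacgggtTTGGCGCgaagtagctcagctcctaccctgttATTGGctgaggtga

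Levels were deposited as FPKM, that is, with transcript length and library total divided out, which can be compared between genes. The FPKM of a library summed to 293194 to 382101, and 12587 to 13944 genes were above 0. Read counts are unknown, so no counting interval can be given. Ctnnb1, the targeted gene, was at 81.0, 67.3, 70.4 and 81.1 FPKM in the LoF, 137 and 146 in the WT and 72.0 and 86.7 in the GoF libraries. Both mutant groups lay below WT, and no comparison of it passed (limma, adjusted p of 0.110 for LoF against WT, 0.176 for GoF against WT and 0.868 for GoF against LoF). The table has 1 value per gene and does not show which exon was lost. The 12 markers of hypertrophic chondrocytes summed to 13130 to 17290 FPKM in LoF (9 to 10 of 12 above 0). The sums were 12170 and 9098 in WT (11 and 10) and 9919 and 14030 in GoF (12 and 12). Spp1, Mmp13 and Ibsp made up most of each sum, so the sums do not give the share of such cells. The markers moved with the group in both directions: 7 were called higher and 2 lower in GoF against LoF (5.97% and 5.68% of all genes tested). In LoF against WT, 1 was higher and 3 lower (0.566% and 0.667% of all). In GoF against WT, 0 were called higher by limma and 1 lower (1.41% and 0.9% of all). Mmp13, a collagenase gene, was at 3110 to 4780 FPKM in LoF and 10.9 and 86.7 in GoF, while Ibsp, of bone matrix, was at 320 to 823 in LoF and 7470 and 10700 in GoF. Col10a1 was present in all 8 libraries (6.24 to 190 FPKM), and Ihh was listed at 0 in all LoF and WT libraries. Their part in the cell cycle differences was not tested. Y-linked transcripts were found in both GoF libraries and LoF replicates 2 and 3, and Xist in both WT libraries and LoF replicates 1 and 4.

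By the test described below, 10 of the 50 genes, chiefly those of replication and mitosis, had lower FPKM in GoF than in LoF (5.68% of all genes tested). Cdkn1a, the Cdk inhibitor gene induced by p53, had higher FPKM (5.97% of all were higher). FPKM is a share of the library total and not an amount per cell. Most of these calls depended on GoF replicate 1, as given below. Among the lower genes, Mcm4 and Aurkb entered the test only through LoF and WT. The GoF group had the lowest mean FPKM of the 3 groups for 46 of the 50 genes. The same count over all genes was not made. Over all genes tested, the median log2 fold change of GoF was -0.17 against LoF and -0.08 against WT. The summed level of the 11 S phase genes was 92.4 ± 55.4 FPKM in GoF (SD, n = 2), 246 ± 73.2 in LoF (SD, n = 4) and 254 ± 82.8 in WT (SD, n = 2). The 12 mitotic genes summed to 31.9 ± 11.7, 125 ± 60.3 and 157 ± 49.1 FPKM in the same order. LoF and WT means differed by less than their SDs in both sums. In pools of cells, fewer dividing cells and less transcript per dividing cell cannot be told apart.

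**Figure D1:**
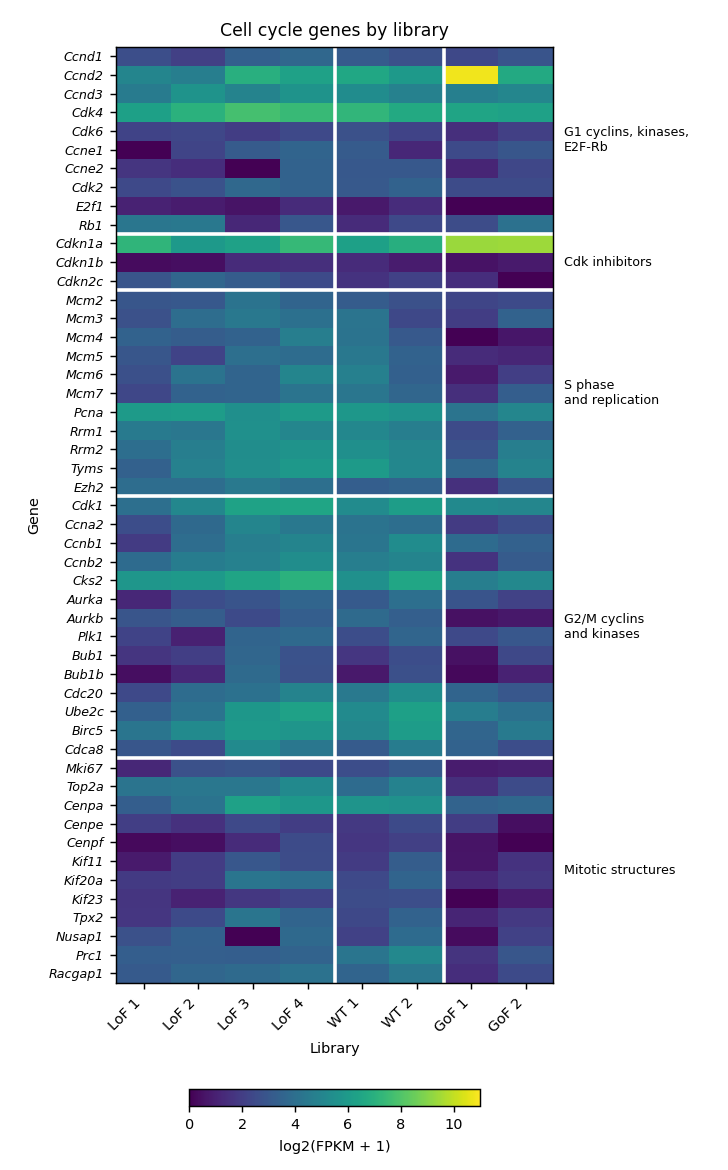
Expression of the 50 genes (rows, grouped by role) in the 8 libraries (columns, grouped as LoF, WT and GoF), coloured by log2(FPKM + 1) from 0 to 11. The 2 GoF columns are mostly the darkest in the S phase and mitotic rows, Cdkn1a is brightest in GoF (642 and 667 FPKM), and Ccnd2 stands out in GoF replicate 1 (1752 FPKM).

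Differences were tested with limma on log2(FPKM + 1) over 12888 genes that had at least 1 FPKM in at least 2 libraries, and a gene was called at a Benjamini-Hochberg adjusted p under 0.05. Log2 fold changes below are on this scale, which understates the change of low genes. All 50 cell cycle genes passed the filter, 34 with at least 1 FPKM in every library. The other 16 include genes that passed through the groups where they are high. Under 1 FPKM in both GoF libraries were 7: E2f1, Cdkn1b, Mcm4, Aurkb, Mki67, Cenpf and Kif23. These entered the test only through LoF and WT. Among them, Mcm4 and Aurkb were called lower in GoF.

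Between GoF and LoF, 10 of the 50 genes were lower in GoF (5.68% of all genes tested were) and 1 was higher (5.97% of all). The lower genes were Mcm4, Mcm6, Pcna, Rrm1 and Ezh2 of S phase, Ccnb2 and Aurkb of G2/M, Top2a and Racgap1 of the mitotic genes, and the Cdk inhibitor gene Cdkn2c, and the higher one was Cdkn1a. The median log2 fold change was -1.04 over the 50 genes and -0.17 over all genes tested, and with median ratio scaling, which moved the median of all genes to -0.05, it was -0.89. Both GoF libraries lay below all 4 LoF libraries for 18 of the 50 (18.7% of all genes) and above them for 1 (14.8% of all). Without GoF replicate 1, 3 of the 50 remained called (Cdkn1a, Mcm4 and Cdkn2c). Among libraries with Y-linked transcripts alone (both GoF, LoF replicates 2 and 3), 2 of 47 tested were called, Cdkn1a and Mcm4, and the median was -1.13.

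Between GoF and WT, 3 of the 50 genes were lower in GoF (0.9% of all genes tested were) and 1 was higher (1.41%). Of the 50 values 46 were negative, against 6961 of all 12888. Mcm4, Aurkb and Prc1 were lower and Cdkn1a was higher. The median log2 fold change was -1.21 over the 50 genes and -0.08 over all genes. Both GoF libraries lay below both WT libraries for 38 of the 50 (26.2% of all genes) and above them for 3, namely Ccnd2, Rb1 and Cdkn1a (21.8% of all). These counts share the GoF libraries with the comparison against LoF. The count of 4 was 0 without WT replicate 1, WT replicate 2 or GoF replicate 1, and 1, a different gene (Ccnd2), without GoF replicate 2. By the Y-linked and Xist transcripts, both GoF libraries were of 1 sex and both WT libraries of the other, so sex and genotype cannot be told apart from these 2 groups alone. With sex as a covariate, estimated through the LoF libraries, 1 gene was called (Cdkn1a).

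Between LoF and WT, limma called 0 of the 50 genes, where 0.566% of all genes were higher and 0.667% lower in LoF. At an unadjusted p under 0.05 there was 1 (Prc1), against 1725 of all 12888 genes tested. The median log2 fold change was -0.18 over the 50 genes and 0.06 over all genes. Over the 50 genes it depended on single libraries, and was 0.03 without LoF replicate 1, -0.09 without LoF replicate 2, -0.35 without LoF replicate 3, -0.39 without LoF replicate 4 and -0.29 without WT replicate 1. All 4 LoF libraries lay above both WT libraries for Cdkn2c and Ezh2, 2 of the 50 (11.5% of all genes), and below them for Aurkb, Kif23 and Prc1, 3 of the 50 (9.88%). Among libraries with Xist alone (LoF replicates 1 and 4, both WT), limma again called 0 of the 50, with 2 at an unadjusted p under 0.05. The 95% interval of the log2 difference was narrowest for Pcna (-0.53 to 0.88) and widest for Nusap1 (-2.78 to 1.73).

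**Figure D2:**
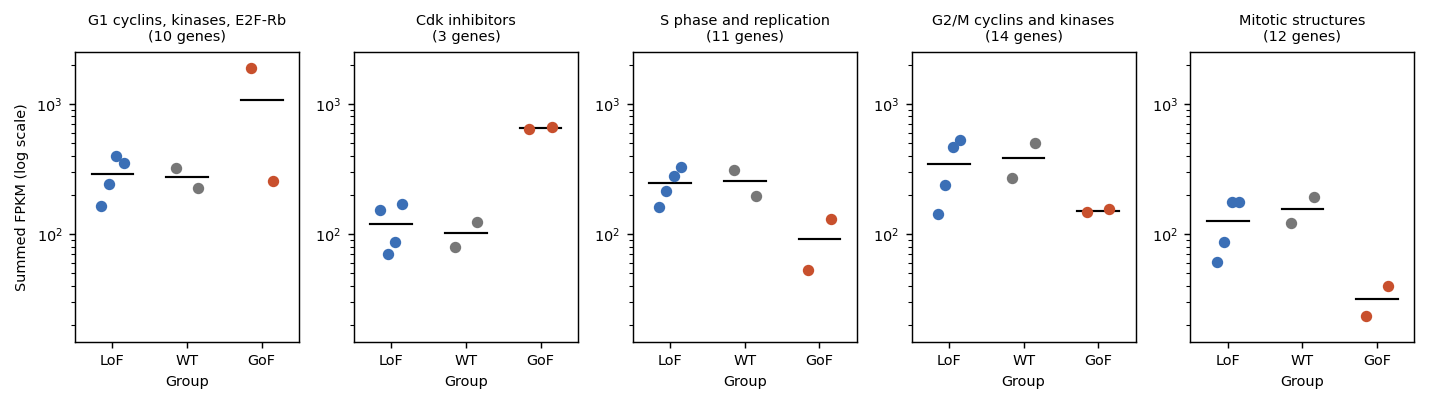
Summed FPKM of the genes of each role (vertical axis, log scale) in each library (points) by group (horizontal axis), with the group mean as a line. The GoF points lie below all others for S phase (53.2 and 131) and mitotic genes (23.7 and 40.2), above all others for the Cdk inhibitors (644 and 667), and among the G2/M sums LoF replicate 1 (143) lies below both GoF points (147 and 156).

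The G1 genes showed no call in any comparison. Ccnd1, the D-type cyclin gene often named as a β-catenin target, was at 5.28, 3.28, 9.34 and 11.7 FPKM in LoF, 7.95 and 5.72 in WT and 4.23 and 6.23 in GoF. The groups overlapped, and the log2 fold change of GoF against LoF was -0.33 (95% interval -1.46 to 0.80, limma adjusted p = 0.739). Ccnd2, which encodes another D-type cyclin, was at 31.1, 25.4, 121.5 and 77.2 FPKM in LoF, 94.2 and 61.6 in WT, and 1752 and 101 in GoF. GoF replicate 1 stood far above GoF replicate 2, which was itself below the highest LoF library. The difference from LoF did not pass (log2 fold change 2.99, SE 0.96, limma adjusted p = 0.0773), and neither did that from WT (adjusted p = 0.356). Without GoF replicate 2, which leaves GoF replicate 1 alone, both passed (log2 fold changes 5.04 and 4.50, adjusted p = 0.0035 and 0.0334). Cdk4, the partner kinase of the D-type cyclins, was the most abundant G1 kinase, at 74.7, 128, 212 and 171 FPKM in LoF, 149 and 102 in WT and 83.9 and 78.6 in GoF. The GoF values were under both WT values but overlapped LoF, with a log2 fold change against LoF of -0.74 (adjusted p = 0.273). Ccnd3 was at 23.2, 49.1, 29.2 and 49.1 FPKM in LoF, 40.0 and 27.8 in WT and 26.2 and 32.6 in GoF, and these ranges overlapped. E2f1, an activator of S phase genes, was listed at 0 in both GoF libraries and at 0.481 to 1.63 FPKM in the other 6, near the filter, and did not pass (adjusted p = 0.183 against LoF and 0.342 against WT). With a pseudocount of 0.1 the difference from LoF passed (adjusted p = 0.0486). Without Ccnd2, the G1 genes summed to 131 and 153 FPKM in GoF, 134 to 276 in LoF and 164 to 227 in WT. Cdk6, Ccne1, Ccne2, Cdk2 and Rb1 had log2 fold changes of -0.58 to 0.47 between GoF and LoF.

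Among the Cdk inhibitors, Cdkn1a and Cdkn2c moved in opposite directions. Cdkn1a (ENSMUSG00000023067.13, chromosome 17, 29090979 to 29100722, mm10) was at 145, 59.1, 76.7 and 163 FPKM in LoF, 75.7 and 119 in WT, and 642 and 667 in GoF. Both GoF libraries lay far above the highest of the other 6. The GoF mean was 5.89-fold that of LoF (log2 fold change 2.67, SE 0.41, limma adjusted p = 0.00287), a call kept in 17 of 17 alternatives. It was 6.70-fold that of WT (log2 fold change 2.77, SE 0.47, limma adjusted p = 0.0153), a call kept in 11 of 16 alternatives. Leaving out any 1 of the 4 libraries of that comparison ended it, with an adjusted p of 0.065 (without WT replicate 2) to 0.171 (without WT replicate 1). LoF and WT did not differ in Cdkn1a beyond their spread (log2 fold change 0.098, 95% interval -0.81 to 1.01).

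Cdkn2c (ENSMUSG00000028551.14, chromosome 4, 109660876 to 109667189), which encodes an inhibitor of Cdk4 and Cdk6, was at 6.46, 11.5, 8.25 and 4.55 FPKM in LoF, 2.08 and 3.32 in WT and 1.69 and 0 in GoF. The 3 groups did not overlap, with LoF highest. It was lower in GoF than in LoF (log2 fold change -2.34, SE 0.55, limma adjusted p = 0.0219). The call ended without GoF replicate 2 (log2 fold change -1.63, adjusted p = 0.225) and without LoF replicate 2 (adjusted p = 0.0516). Against WT, neither LoF (log2 fold change 1.19, adjusted p = 0.392) nor GoF (-1.15, adjusted p = 0.47) passed. Cdkn1b, another inhibitor gene of the same family as Cdkn1a, was at 0.254 to 1.81 FPKM in all 8 libraries and overlapped between LoF and GoF.

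Of the 11 S phase genes, 5 were called lower in GoF against LoF (5.68% of all genes were). All 11 log2 fold changes were negative, from -3.37 to -0.58 (7419 of all 12888 genes were negative). Mcm4 (ENSMUSG00000022673.4, chromosome 16, 15623897 to 15637400) encodes a subunit of the replicative helicase. It was at 9.90, 8.57, 9.85 and 24.7 FPKM in LoF, 17.5 and 7.45 in WT, and listed at 0 and 0.607 in GoF. Both GoF libraries lay far below the lowest other library, and Mcm4 passed the filter only through LoF and WT. Mcm4 was lower than in LoF (log2 fold change -3.37, SE 0.54, limma adjusted p = 0.00357), a call kept in 17 of 17 alternatives, and than in WT (-3.30, SE 0.62, adjusted p = 0.0257). The call against WT held in 9 of 16 alternatives and ended without any 1 of the WT and GoF libraries, with an adjusted p of 0.0679 (without WT replicate 2) to 0.211 (without WT replicate 1).

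Mcm6, another helicase subunit and the gene whose promoter is printed above, was at 5.48, 17.1, 10.5 and 30.9 FPKM in LoF, 26.9 and 9.27 in WT and 0.729 and 3.06 in GoF. GoF lay below both other groups, and the difference from LoF passed (log2 fold change -2.44, SE 0.68, limma adjusted p = 0.0431). Its call ended in 12 of 17 alternatives tried. Among them were those without LoF replicate 2, 3 or 4, WT replicate 1 or either GoF library, with an adjusted p of 0.0518 (without WT replicate 1) to 0.344 (without GoF replicate 1). Mcm5 lay just outside the threshold (log2 fold change -1.99, limma adjusted p = 0.0501, and 0.0234 without LoF replicate 2), while Mcm2, Mcm3 and Mcm7 had values of -1.05, -1.05 and -0.99 and did not pass.

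Pcna (ENSMUSG00000027342.14, chromosome 2, 132249162 to 132253314), the sliding clamp of DNA polymerase, was the most abundant S phase gene. It was at 63.7, 65.7, 43.8 and 61.9 FPKM in LoF, 55.0 and 47.7 in WT and 17.9 and 32.0 in GoF. GoF was below every other library, and the log2 fold change against LoF was -1.24 (SE 0.32, limma adjusted p = 0.0319). This call ended in 12 of 17 alternatives, median ratio scaling among them (adjusted p = 0.0562). It also ended without LoF replicate 1, 2 or 4, either WT library or GoF replicate 1, with an adjusted p of 0.0522 (without WT replicate 2) to 0.381 (without GoF replicate 1).

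Rrm1, the large subunit of ribonucleotide reductase, was at 21.4, 19.6, 45.4 and 32.1 FPKM in LoF, 33.2 and 24.8 in WT and 4.79 and 9.71 in GoF. Both GoF values lay below all others, and Rrm1 was lower than in LoF (log2 fold change against LoF -1.88, SE 0.42, limma adjusted p = 0.0186). Ezh2, a histone methyltransferase gene that is on with proliferation, was at 14.3, 14.4, 21.02 and 15.4 FPKM in LoF, 8.87 and 10.5 in WT and 1.86 and 6.36 in GoF. The groups were ordered LoF, WT and GoF without overlap, and GoF against LoF passed (log2 fold change -1.90, SE 0.44, adjusted p = 0.0206). Without GoF replicate 1, neither Rrm1 (adjusted p = 0.224) nor Ezh2 (adjusted p = 0.286) was called. The Rrm1 and Ezh2 calls also ended with a term for replicate number, with sex as a covariate and among libraries with Y-linked transcripts. Rrm2, the other reductase subunit, and Tyms, thymidylate synthase, were lower in GoF replicate 1 (5.80 and 11.8 FPKM) than in GoF replicate 2 (25.3 and 29.7). The latter lay within the LoF range of 14.9 to 49.6 FPKM for Rrm2 and 9.63 to 57.6 for Tyms, and WT was at 43.8 and 31.7 for Rrm2 and 61.9 and 32.7 for Tyms. Neither passed against LoF (log2 fold changes -1.19 and -0.58, limma adjusted p = 0.241 and 0.624).

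**Figure D3:**
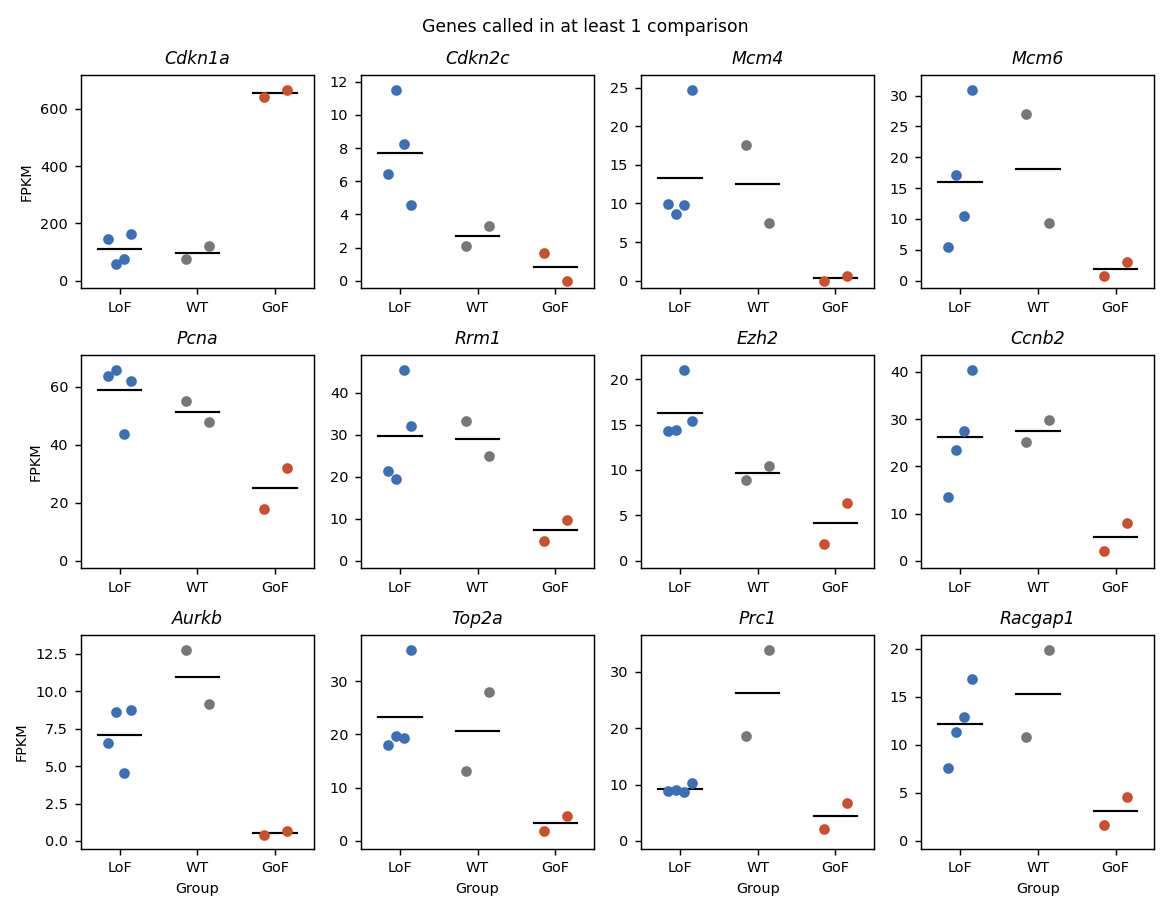
FPKM (vertical axis, linear, a scale of its own for each gene) of the 12 genes called in at least 1 comparison, in each library (points) by group, with group means as lines. Cdkn1a is high in both GoF libraries (642 and 667), Mcm4 is near 0 in both (0 and 0.607), and Prc1 is highest in WT (18.5 and 33.9).

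Of the 14 G2/M genes, 2 were called lower in GoF against LoF (5.68% of all genes were) and 1 against WT (0.9% of all). Both GoF libraries were below all LoF libraries for 3 of the 14, near the share of all genes (18.7%). They were below both WT libraries for 10 (26.2% of all genes). All 14 values against WT were negative (6961 of all 12888 genes were). Aurkb (ENSMUSG00000020897.12, chromosome 11, 69045647 to 69051664), the kinase of the chromosomal passenger complex, was at 6.56, 8.60, 4.51 and 8.77 FPKM in LoF, 12.8 and 9.18 in WT and 0.416 and 0.650 in GoF. Both GoF libraries lay far below all others, and the LoF values were under the WT values without overlap. Like Mcm4, Aurkb passed the filter only through LoF and WT. Aurkb was lower in GoF than in LoF (log2 fold change -2.37, SE 0.43, limma adjusted p = 0.00669) and than in WT (-2.95, SE 0.50, adjusted p = 0.0147). The first call ended without GoF replicate 1 (adjusted p = 0.0783). The second ended without any 1 of the WT and GoF libraries (adjusted p of 0.0788 without WT replicate 2 to 0.162 without WT replicate 1). LoF against WT did not pass (log2 fold change -0.58, adjusted p = 0.616).

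Ccnb2 (ENSMUSG00000032218.6, chromosome 9, 70407689 to 70421554), one of the B-type cyclin genes, was at 13.6, 23.5, 27.5 and 40.4 FPKM in LoF, 25.1 and 29.7 in WT and 2.06 and 8.02 in GoF. It was lower in GoF than in LoF without overlap (log2 fold change -2.28, SE 0.51, limma adjusted p = 0.0188), and without GoF replicate 1 the call ended (adjusted p = 0.234). The Ccnb2 call also ended with a term for replicate number, with sex as a covariate and among libraries with Y-linked transcripts. The other B-type cyclin gene, Ccnb1, gave a different picture: GoF (13.2 and 9.71 FPKM) lay inside the LoF range of 2.77 to 29.8, with a log2 fold change of -0.25 (95% interval -1.91 to 1.42). Both values were under those of WT (18.6 and 40.1 FPKM), a difference that did not pass (-1.20, limma adjusted p = 0.606).

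Cks2, a small partner of Cdk1 and the most abundant G2/M gene, was at 53.7, 60.5, 84.7 and 128 FPKM in LoF, 44.6 and 91.0 in WT and 25.3 and 34.0 in GoF. GoF was below every other library but the difference from LoF stayed outside the threshold (log2 fold change -1.37, SE 0.41, limma adjusted p = 0.0585), and passed without LoF replicate 1 (adjusted p = 0.0451). Cdk1 itself, the mitotic kinase, was at 15.1, 33.1, 79.8 and 86.8 FPKM in LoF, 38.2 and 69.6 in WT and 36.6 and 32.3 in GoF. Here the GoF libraries sat within the LoF range (log2 fold change -0.33, 95% interval -1.71 to 1.06). Ube2c, the ubiquitin-conjugating enzyme that works with the anaphase-promoting complex, was at 9.29, 17.3, 56.4 and 77.6 FPKM in LoF, 37.9 and 74.7 in WT and 24.3 and 15.6 in GoF (log2 fold change -0.57, 95% interval -2.20 to 1.06). Aurka and Plk1, the spindle kinases, had log2 fold changes of -0.050 and 0.068 between GoF and LoF, with intervals of -1.45 to 1.35 and -1.58 to 1.72. Against WT the values were -1.04 for Aurka (interval -2.66 to 0.57) and -0.39 for Plk1 (-2.30 to 1.51), and neither passed. The remaining Ccna2, Bub1, Bub1b, Cdc20, Birc5 and Cdca8 ranged from -1.68 to -0.56 and none passed, though without LoF replicate 1 Ccna2 (adjusted p = 0.0188) and Birc5 (0.0468) did.

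Of the 12 mitotic genes, 2 were called lower in GoF against LoF (5.68% of all genes were). All 12 log2 fold changes were negative, from -2.53 to -0.81 (7419 of all 12888 genes were negative). Top2a (ENSMUSG00000020914.17, chromosome 11, 98992943 to 99024189), the topoisomerase that untangles replicated chromosomes, was at 17.98, 19.7, 19.3 and 35.9 FPKM in LoF, 13.2 and 28.1 in WT and 1.83 and 4.77 in GoF. Both GoF libraries lay below all others (log2 fold change against LoF -2.53, SE 0.46, limma adjusted p = 0.00676). Without GoF replicate 1 the adjusted p was 0.0953, and against WT the difference did not pass (-2.33, SE 0.54, adjusted p = 0.0545), except under median ratio scaling or quantile normalization (0.0443 and 0.0491). Racgap1, a regulator of cytokinesis, was at 7.63, 11.3, 12.9 and 16.9 FPKM in LoF, 10.8 and 19.9 in WT and 1.69 and 4.59 in GoF. GoF was lower than LoF without overlap (log2 fold change -1.72, SE 0.47, limma adjusted p = 0.0413). The call ended in 12 of 17 alternatives. These included leaving out LoF replicate 2, 3 or 4, either WT library or either GoF library, with an adjusted p of 0.0535 (without WT replicate 1) to 0.397 (without GoF replicate 1).

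Prc1 (ENSMUSG00000038943.16, chromosome 7, 80294450 to 80316259), which bundles the microtubules of the central spindle, had WT values above those of both mutants. It was at 8.82, 9.06, 8.72 and 10.3 FPKM in LoF, 18.5 and 33.9 in WT and 2.15 and 6.81 in GoF. The order was WT, LoF and GoF, with no overlap between any of the groups. GoF was lower than WT (log2 fold change -2.40, SE 0.51, limma adjusted p = 0.0425), a difference that kept its call in 3 of 16 alternatives. Leaving out LoF replicate 1, 2 or 4, either WT library or either GoF library ended it, with an adjusted p of 0.0501 (without GoF replicate 2) to 0.365 (without GoF replicate 1). LoF against WT did not pass after adjustment (log2 fold change -1.36, SE 0.45, adjusted p = 0.207). Prc1 overlaps Rccd1 (0.329 to 4.54 FPKM), and the library type does not mark strand.

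Mki67, the gene of the proliferation antigen Ki-67, was low in all libraries, at 1.32, 5.69, 6.43 and 4.57 FPKM in LoF, 4.97 and 7.64 in WT and 0.775 and 0.972 in GoF. GoF was below every other library, and neither the difference from LoF (log2 fold change -1.43, SE 0.55, limma adjusted p = 0.137) nor that from WT (-1.94, SE 0.64, adjusted p = 0.179) passed. Without LoF replicate 1, the lowest LoF library, the difference from LoF passed (log2 fold change -1.80, adjusted p = 0.0394). Cenpa, the centromeric histone gene, was the most abundant mitotic gene at 8.81, 17.4, 76.8 and 55.7 FPKM in LoF, 50.1 and 46.6 in WT and 10.5 and 11.6 in GoF. LoF replicate 1 lay below both GoF libraries, and the log2 fold change against LoF of -1.31 did not pass (adjusted p = 0.292). Cenpe, Cenpf, Kif11, Kif20a, Kif23, Tpx2 and Nusap1 had negative values against LoF, from -1.53 to -0.81, and were not called.

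**Figure D4:**
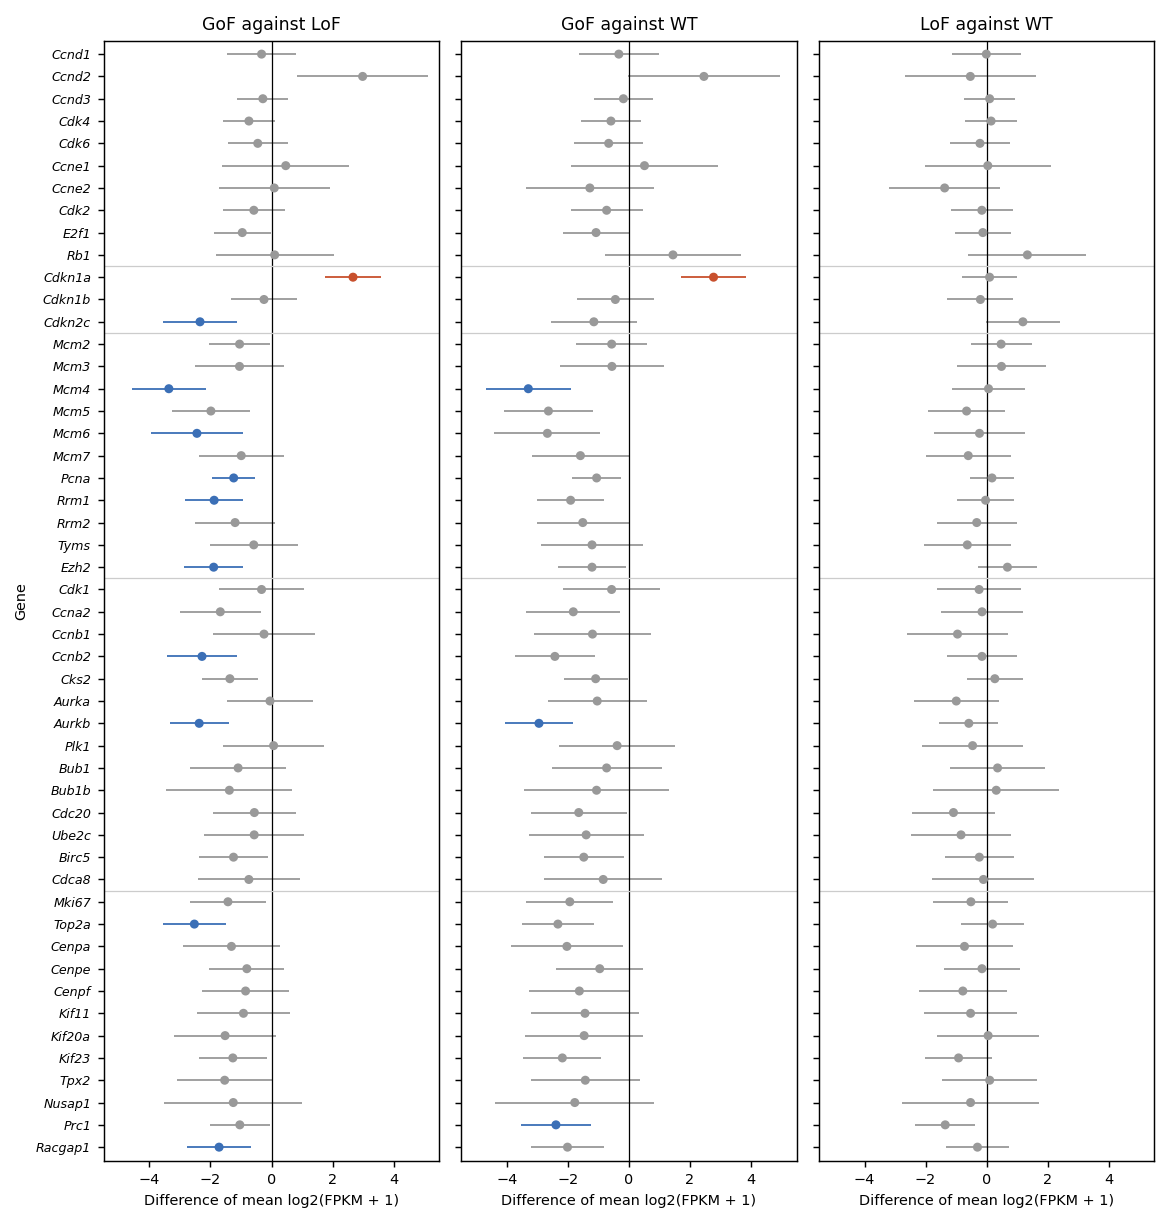
Difference of mean log2(FPKM + 1) with its 95% interval (horizontal axis) for the 50 genes (vertical axis, grouped by role) in the 3 comparisons, with calls coloured orange (higher) and blue (lower). Most points of both GoF panels lie left of 0, with medians of -1.04 against LoF and -1.21 against WT, while the LoF against WT panel (median -0.18) has no coloured point.

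Libraries of 1 group differed from each other over many genes at once. In LoF, replicate 1 was the lowest library for 31 of the 50 genes (39.4% of all genes tested), and replicates 1 and 2 were both below replicates 3 and 4 for 34 (27.1% of all genes tested), including 13 of the 14 G2/M genes. The summed G2/M level was 143, 236, 463 and 529 FPKM in LoF replicates 1 to 4, so that replicate 1 was under the GoF libraries (147 and 156). In GoF, replicate 1 was below replicate 2 for 37 of the 50 genes (52.9% of all genes). Among them were 10 of 11 S phase genes, with sums of 53.2 and 131 FPKM, and 10 of 12 mitotic genes. In WT, replicate 1 was above replicate 2 for 10 of 11 S phase genes and below it for 12 of 14 G2/M and 11 of 12 mitotic genes (below it for 42.5% of all genes). The ratio of G2/M and mitotic to S phase FPKM was accordingly 1.26 in WT replicate 1 and 3.53 in WT replicate 2. It was 3.22 and 1.49 in the GoF libraries and 1.26 to 2.31 in LoF, so no order of the groups by this ratio was seen. The S phase, G2/M and mitotic genes together held 0.0635% and 0.0856% of all FPKM in GoF, 0.125% to 0.297% in LoF and 0.217% and 0.257% in WT.

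Further genes of the same processes were counted in the same way for GoF against LoF. Of 32 other S phase genes, 7 were lower (5.68% of all genes were) and 0 higher (5.97% of all), with a median log2 fold change of -1.28 (-0.17 over all genes). They were led by Rfc4, a clamp loader subunit (log2 fold change -3.03, SE 0.48, limma adjusted p = 0.00329), Dut, a dUTPase (-2.37, adjusted p = 0.0172), Rfc3, another clamp loader subunit (-2.36, adjusted p = 0.00443), and Uhrf1, which helps copy DNA methylation (-2.12, adjusted p = 0.0378). Of 48 other mitotic genes tested, 6 were lower and 0 higher, against the same shares of all genes, with a median of -0.97. Among the 6 called, the largest changes were of the condensin subunit gene Ncaph (-2.76, adjusted p = 0.0155), the chromatin protein gene Hmgb2 (-2.66, adjusted p = 0.0059), the Cdk partner gene Cks1b (-1.98, adjusted p = 0.0126) and Ncapd2, also of condensin (-1.81, adjusted p = 0.0257). Without GoF replicate 1, Rfc4 was still called among these 8 genes. The adjusted p of the other 7 was then 0.149 for Dut, 0.064 for Rfc3, 0.23 for Uhrf1, 0.182 for Ncaph, 0.0778 for Hmgb2, 0.171 for Cks1b and 0.0859 for Ncapd2. The calls of Dut, Uhrf1 and Ncapd2 also ended without GoF replicate 2 (adjusted p = 0.0578, 0.145 and 0.217). That of Uhrf1 ended as well without LoF replicate 3 (0.0584), LoF replicate 4 (0.0776) or WT replicate 1 (0.0508), and that of Ncapd2 without LoF replicate 2 (0.0601). In GoF against WT, 1 of the 32 (Rfc4, -2.84, adjusted p = 0.028) and, by limma, 0 of the 48 were called, with 21 of the 48 at an unadjusted p under 0.05. Over all 12888 genes, 0.9% were called lower and 1.41% higher, and 1849 were at an unadjusted p under 0.05. Leaving out either WT library or GoF replicate 1 ended that call of Rfc4 (adjusted p of 0.0958 to 0.229). In LoF against WT, limma called 0 of the 32 and 0 of the 48, with 1 and 2 at an unadjusted p under 0.05. Over all 12888 genes, 0.566% were called higher and 0.667% lower, and 1725 were at an unadjusted p under 0.05.

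Genes of arrest, quiescence and the p53 response moved in both directions. Of 21 tested, 2 were higher in GoF than in LoF (5.97% of all genes were) and 3 lower (5.68% of all). Tob1, an antiproliferative gene, was at 36.1 and 29.8 FPKM in GoF and 3.20 to 12.3 in LoF (log2 fold change 2.01, SE 0.46, limma adjusted p = 0.0202). Ccng1, a p53 target, was at 30.3 and 22.8 FPKM in GoF and 7.81 to 12.4 in LoF (1.35, SE 0.37, adjusted p = 0.0414), and was called in 4 of 17 alternatives. The lower genes were Gadd45a, a stress-induced arrest gene (-2.18, SE 0.40, adjusted p = 0.00706), Ccng2 (-1.96, SE 0.56, adjusted p = 0.0492, called in 4 of 17 alternatives) and Btg1 (-1.54, SE 0.32, adjusted p = 0.0138). Leaving out any 1 library other than LoF replicate 4 ended both of the calls of Ccng1 (adjusted p of 0.0514 to 0.36) and Ccng2 (0.068 to 0.277). Without GoF replicate 1, the adjusted p was 0.183 for Tob1, 0.119 for Gadd45a and 0.0643 for Btg1. Without GoF replicate 2 it was 0.0974 for Tob1 and 0.153 for Btg1. Gadd45a was at 16.6, 23.0, 13.6 and 18.8 FPKM in LoF, 3.30 and 3.34 in WT and 2.09 and 4.51 in GoF. It set LoF apart from both other groups and was the 1 gene of the list called in LoF against WT (2.11, SE 0.40, adjusted p = 0.0413). That call ended in 11 of 17 alternatives, among them leaving out LoF replicate 1, 2 or 4 or either WT library, with an adjusted p of 0.0644 (without LoF replicate 1) to 0.301 (without WT replicate 2). Mdm2, the p53-induced inhibitor of p53, was at 14.8 and 15.4 FPKM in GoF, 8.34 to 11.6 in LoF and 13.5 and 3.72 in WT, and was not called. Trp53, the p53 gene itself, went the other way. It was at 9.53 and 15.6 FPKM in GoF, 16.8 to 39.1 in LoF and 26.8 and 27.8 in WT. Phlda3 was at 11.8 and 8.76 FPKM in GoF, 13.0 to 19.4 in LoF and 27.1 and 10.3 in WT. Neither was called. Over the 21 genes, 8 log2 fold changes of GoF against LoF were above 0 and 13 below (5460 and 7419 over all 12888 genes).

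Of 6 tested mitogenic transcription factor genes, limma called 0 in each comparison. At an unadjusted p under 0.05 were 0, 2 and 1 for GoF against LoF, LoF against WT and GoF against WT. Over all 12888 genes, 3253, 1725 and 1849 were. Myc, a growth-promoting factor and textbook β-catenin target, was at 3.97, 7.65, 6.68 and 10.3 FPKM in LoF, 20.2 and 11 in WT and 11.4 and 10.9 in GoF. The GoF values lay just above the highest LoF library and near WT replicate 2, and the log2 fold change against LoF was 0.64 (95% interval -0.33 to 1.60).

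Markers of other cells differed between libraries. The summed level of 12 erythroid markers was 98.0 to 2290 FPKM in LoF (6 to 9 of 12 above 0), 2578 and 10600 in WT (9 and 11) and 910 and 1858 in GoF (5 and 7). The 20 myeloid and osteoclast markers summed to 108 to 232 FPKM in LoF (9 to 13 above 0), 358 and 169 in WT (14 and 13) and 120 and 125 in GoF (8 and 12). Of the 12 of them tested, 1 was called higher and 2 lower in GoF against LoF (5.97% and 5.68% of all genes tested). S100a8, S100a9 and Tyrobp were listed at 0 in both GoF libraries, while Acp5 was at 22.3 and 17.6 FPKM in GoF and 6.99 or less elsewhere. The 9 lymphoid markers summed to 0 to 25.6, 7.06 and 6.64, and 1.25 and 0 FPKM in LoF, WT and GoF. The 9 endothelial markers summed to 71.7 FPKM in LoF replicate 3 and to 11.5 or less elsewhere. The 13 markers of resting and proliferating chondrocytes found in the table summed to 42.8 to 110 FPKM in LoF, 44.8 and 32.3 in WT and 224 and 135 in GoF. Col2a1 (90.3 and 48.8 FPKM) and Comp (79.9 and 51.5) made up most of the GoF sum, and Sox5 and Prg4 were listed at 0 there. Over the 12 of these markers tested, the median log2 fold change of GoF against LoF was -0.03, with 5 above 0 and 7 below. Of the 12, 1 was called, as higher (5.97% of all genes tested were). The part of these cells in the cell cycle differences was not tested.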

How the data were processed

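RNA from pools of 70 hand-picked cells was amplified and sequenced by Smart-seq2. The authors deposited FPKM per gene and library. The submitters' processing notes name HISAT2, SAMtools 0.1.18, Cufflinks, HTSeq and mm10, without roles, and the annotation release is not given in the sources used here. Since FPKM is relative to the library total, abundant genes lower the others. Smart-seq2 does not mark strand, and 13 of the 50 genes overlap another gene that passed the filter (Ccnd1, Ccnd2, Ccnd3, Cdk4, Ccne2, Rb1, Mcm7, Ccna2, Cdc20, Cdca8, Kif20a, Nusap1 and Prc1). A Pcna pseudogene was listed at 0 to 7.33 FPKM.

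Of 48555 lines, 65 repeated a gene ID with identical values and were dropped. Groups came from the labels. The 12888 genes that reached 1 FPKM in 2 or more libraries were fitted as log2(FPKM + 1) in all 3 groups together, with limma 3.58.1 in R 4.3.3 (mean-variance trend, 10.1 total degrees of freedom), and called at a Benjamini-Hochberg adjusted p under 0.05. GoF and WT, with 2 libraries each, share the estimate of spread with LoF. The code was tested on simulated data. Where leaving out a library left 1 in a group, that library was assumed to vary like the others.

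The genes, roles, lists and tests were chosen with earlier results of these data known. Values for each library are given for genes called in any comparison, the 3 most abundant and the 2 of lowest p in each role, and Ccnd1, Myc, Mki67 and Ctnnb1. For other lists, up to 4 called genes per direction are named by size of change. Ccnb1, Aurka, Plk1, Mdm2 and other genes given in passing were chosen after their values were seen. Alternatives were a pseudocount of 0.1, no filter, quantile normalization, median ratio scaling, a fit of the compared groups alone, no trend, a replicate block, sex as a covariate and leaving out each library. Fits within libraries of 1 sex were added after the data were seen. Cdt1 and Gins2 matched no gene. Promoter windows (RefSeq, GRCm38.p6) were not used for Aurkb, Ccna2, Ccnd1, Ccnd2, Ccne2, Kif20a, Mcm4, Rb1 and Tpx2.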

Additional observations from a re-analysis of the deposited data

Results flagged for a closer look

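In 3 of 57 sets of 4 LoF values, 1 library stood apart from the other 3. Its gap, as a share of the range, was above Dixon's 95% critical value, and chance gives about 1 in 20. Single genes were taken as log2(FPKM + 1), and the summed level of each role as FPKM. Mcm4 was at 24.7 FPKM in LoF replicate 4 and at 8.57 to 9.90 in the others. Top2a was at 35.9 FPKM in LoF replicate 4 and at 17.98 to 19.7 in the others. Pcna was at 43.8 FPKM in LoF replicate 3 and at 61.9 to 65.7 in the others. All 4 values of each gene were above both GoF values.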

How the results depend on the processing

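The counts of called genes depended on the libraries and covariates more than on scaling. For GoF against LoF, the 1501 calls over all genes and 11 among the cell cycle genes became 727 and 4 with the replicate block, 974 and 5 with sex as a covariate, and 690 and 2 among libraries with Y-linked transcripts. Leaving out 1 library gave 414 to 1400 and 3 to 14. For LoF against WT, the 159 calls became 83 with a pseudocount of 0.1, 53 without a filter, 54 without the trend, 1 with the replicate block, 14 with sex, 0 among libraries with Xist (limma, 2 cell cycle genes at an unadjusted p under 0.05), and 3 (without WT replicate 2) to 135 without 1 library. The split of 73 higher and 86 lower was 78 and 146 under quantile normalization. For GoF against WT, the 298 and 4 calls became 15 and 0 with the block and 11 and 1 with sex. Leaving out 1 library gave 48 (without WT replicate 1 or GoF replicate 1) to 337, and 0 to 4. The cell cycle count alone was 2 without a filter and 7 under either scaling. No cell cycle gene was called in LoF against WT under the 17 alternatives run. The GoF sums became 687 and 674 FPKM (Cdk inhibitors, median ratio and quantile) and 159 (G2/M, median ratio). Over all genes, the deviations of same-numbered libraries from their group means were nearly uncorrelated (r of -0.007 to 0.030). Such a correlation can miss a batch shared by some genes, and in groups of 2 the deviations mirror each other. Pairing by replicate number was therefore not excluded. With the replicate block, the median log2 fold change of the cell cycle genes was -0.55 rather than -1.04 in GoF against LoF and -0.75 rather than -0.18 in LoF against WT. Signs reversed, without a call, for Ccnd1 in GoF against LoF (0.25 with the block), in LoF against WT (0.205 with sex or among Xist libraries, 0.090, 0.27 and 0.20 without LoF replicate 1, LoF replicate 2 or WT replicate 1, in a range of -0.25 to 0.27 over all libraries left out) and in GoF against WT (0.092 with sex). They also did for Ctnnb1 in GoF against LoF (-0.059 under quantile normalization, -0.052 without GoF replicate 2 to 0.21 without GoF replicate 1) and Myc in GoF against WT (0.015 without WT replicate 1, -0.80 without WT replicate 2). The causes were not tested. Depth is unknown, so what it limits cannot be stated.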
